A study of Homo sapiens with 2 samples.

Results

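The miR-23/27/24 clusters are a pair of paralogous miRNA clusters, each made of a miR-23, a miR-27 and a miR-24 hairpin that are transcribed together. The 5 mature miRNAs followed here, hsa-miR-23a-3p, hsa-miR-27a-3p, hsa-miR-23b-3p, hsa-miR-27b-3p and hsa-miR-24-3p, were taken by name from the 2549 human miRNAs on the array. They were read by 10 probes with 100 spots on each array, 2 probes of 10 spots for every miRNA. RNA came from HepG2, a human hepatocellular carcinoma cell line, 48 h after the cells received either the control adenoviral vector (Ad-NC) or the adenoviral vector for the ultraconserved transcript uc.372 (Ad-uc.372). The sample labels name the vectors only. The series title and the study's text call the treatment overexpression of uc.372, whereas the axes of a scatter plot published with the study carry the suffix of its inhibitor vectors. All differences are therefore given as Ad-uc.372 against Ad-NC, and which way uc.372 moved was not measured on these arrays. Each vector had 1 array, so no test across samples could be made, no p-value is given, and precision is limited by having a single array per vector. Errors are the SD or the standard error (SE) between spots of a probe, which are technical. They treat the spots of both arrays as independent and leave out disagreement between the probes of a miRNA. A difference smaller than its SE is therefore not shown to be absent.

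A mature miRNA guides Argonaute to messenger RNAs that pair with its seed, bases 2 to 8 from the 5′ end, and lowers their translation and stability. In liver and fat cells miR-27 is known for acting on lipid genes, among them PPARG, the regulator of fat cell formation, and GPAM, which acts in glycerolipid synthesis. miR-24 is known to repress INSIG1, which holds back the processing of the sterol regulatory element-binding proteins.

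The mature sequences show why the paralogues are described in pairs. All 5 were found in RefSeq (build GRCh38.p14) and are written 5′ to 3′ with the seed in capitals.
hsa-miR-23a-3p: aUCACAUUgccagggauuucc
hsa-miR-23b-3p: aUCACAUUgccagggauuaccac
hsa-miR-27a-3p: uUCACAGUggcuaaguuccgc
hsa-miR-27b-3p: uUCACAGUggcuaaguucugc
hsa-miR-24-3p: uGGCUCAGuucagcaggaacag
Counted from the 5′ end, miR-23a-3p and miR-23b-3p differed by the single substitution U19A over their 21 shared positions, and miR-23b-3p was 2 bases longer. miR-27a-3p and miR-27b-3p had the same length and differed by C19U. The 5 miRNAs therefore held 3 seeds, and both differences lay outside the seed. Apart from the members, miR-23c was the only miRNA with a matched sequence on the array that had one of these seeds. In GRCh38.p14 the hairpins MIR23A, MIR27A and MIR24-2 lie within 373 bases on the minus strand of chromosome 19 (chr19:13836287-13836659), inside the long non-coding host gene MIR23AHG. MIR23B, MIR27B and MIR24-1 lie within 881 bases on the plus strand of chromosome 9 (chr9:95085208-95086088), inside the protein-coding gene AOPEP. The array grid is annotated to hg19, and no position was taken from it.

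Mature miR-24-3p is the same molecule from both clusters, so its signal cannot be assigned to either. The hairpins are shown because they differ outside that arm, with both mature arms in capitals.
MIR24-1: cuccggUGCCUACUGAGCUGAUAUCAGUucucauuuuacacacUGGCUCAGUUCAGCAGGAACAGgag
MIR24-2: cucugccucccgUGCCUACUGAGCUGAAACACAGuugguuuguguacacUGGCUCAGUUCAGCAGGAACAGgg
The 5p arms, miR-24-1-5p and miR-24-2-5p, differed at 6 of 22 positions, the first of them U16A, and had probes of their own.

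The arrays measured the members clearly. Of the 10 probes, 9 were well above background on both arrays, meaning that the image software marked at least 50% of their spots so, and no spot was saturated. The dimmest spots so marked lay at 21.1 on the Ad-NC array and at 17.3 on the Ad-uc.372 array, in arbitrary units of brightness. After outlier spots were left out (2 of the 100 member spots with Ad-NC and 1 with Ad-uc.372), the brighter probe of each miRNA had mean signals between 148 and 649. Probes bind with different strength, so signals of different probes are not set against each other. On both arrays 229 miRNAs were measured, 8.98% of those on the array. As a check of the cells, the hepatocyte miRNA miR-122-5p was not among them, with mean probe signals of 4.22 to 5.09.

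For comparison between arrays, each probe's log2 signal was taken as the mean of its spots, less the array's 75th percentile, which was read over the probes that both arrays measured well above background. That reference signal was 305 with Ad-NC and 356 with Ad-uc.372, so scaling lowered every log2 difference by 0.23. The median scaled difference of the 229 miRNAs was -0.17, with an SD of 0.29. For the 5 members the median was -0.15 and the SD 0.16, and values ran from -0.41 to 0.023. None of the 5 was at least 1.5-fold higher (log2 0.58), against 1.31% of all measured miRNAs, and none was at least 1.5-fold lower, against 2.62%. With the percentile taken over all probes, these background counts of 3 higher and 6 lower became 34 and 3, and still no member was past 1.5-fold. Of the members 4 were lower with Ad-uc.372 than with Ad-NC, against 73.8% of all measured miRNAs, so the sign as such did not set them apart. That count depended on the scaling. Without scaling it was 1, and the median of all measured miRNAs was 0.060. The members fell in the order miR-24-3p, miR-27b-3p, miR-23b-3p, miR-23a-3p and miR-27a-3p from the lowest difference to the highest.

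**Figure D1:**
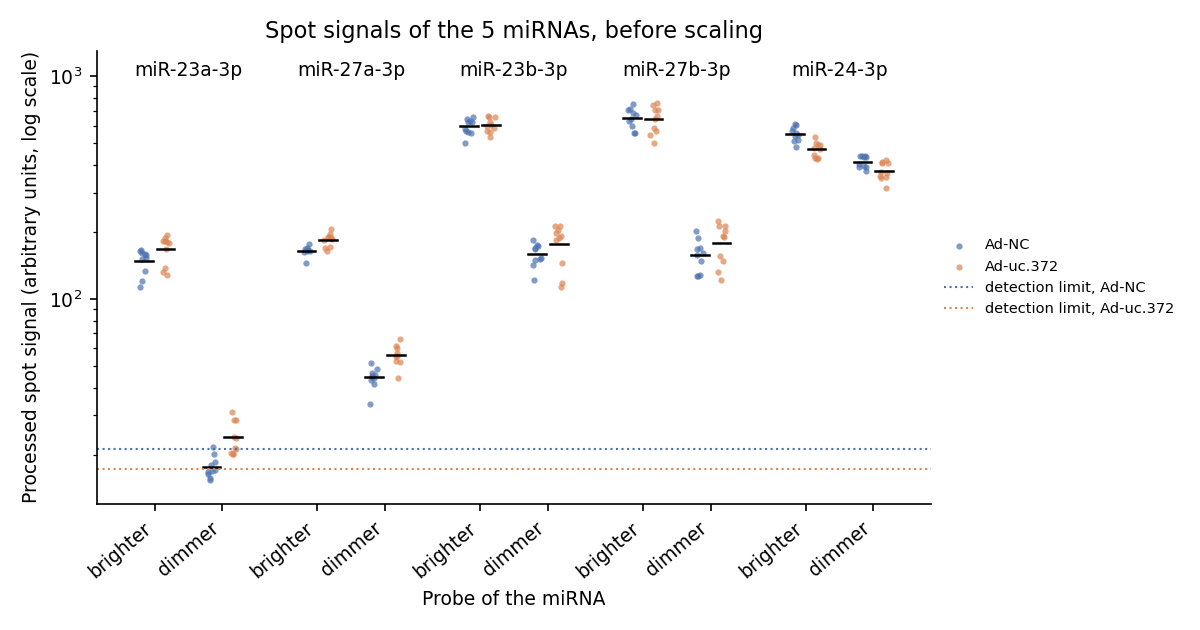
Processed signal of every spot (arbitrary units, log axis) for the brighter and the dimmer probe of each of the 5 miRNAs, with Ad-NC in blue and Ad-uc.372 in orange. Black bars are means over spots, and dotted lines are the dimmest spots marked well above background, 21.1 and 17.3. Signals of miR-24-3p sit lower with Ad-uc.372 on both probes. Those of miR-23a-3p and miR-27a-3p sit higher before scaling, as do mean signals of the dimmer probes of miR-23b-3p and miR-27b-3p.

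miR-24-3p had the lowest difference of the 5. On its brighter probe the 10 spots had a lowest, median and highest signal of 481, 548 and 612 with Ad-NC (mean 551 ± 42.5, SD) and of 424, 474 and 532 with Ad-uc.372 (469 ± 36.9). On its dimmer probe the values were 374, 418 and 440 with Ad-NC (414 ± 25.4) and 316, 369 and 422 with Ad-uc.372 (376 ± 34.9). Before scaling, 6 of the 10 Ad-uc.372 spots of each probe were below the dimmest Ad-NC spot, and after scaling all 10 were. Such complete separation on every measured probe, in this direction, was found for 12.7% of the 229 miRNAs, and in the opposite direction for 0.873%. miR-24-3p was the only member with it. The scaled log2 differences of its probes were -0.46 and -0.37, and the miRNA's was -0.41 ± 0.036 (SE over spots; combined spot SD 0.16), or 1.33-fold lower. It was the 33rd lowest of the 229 and lay -0.25 from their median, less than the SD of all measured miRNAs.

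The scaled differences of the chromosome 19 members, miR-23a-3p and miR-27a-3p, were smaller than their SE over spots. For miR-27a-3p the difference is a mean of probes of opposite sign. The brighter probe of miR-23a-3p had a lowest, median and highest spot of 113, 155 and 166 with Ad-NC (148 ± 18.8, n = 10 spots) and of 128, 179 and 195 with Ad-uc.372 (167 ± 24.9, n = 10 spots). Most Ad-uc.372 spots were brighter than every Ad-NC spot before scaling, 7 of 10, and 8 of 10 lay inside the Ad-NC range after it. Its log2 difference was -0.056 ± 0.095 (SE; spot SD 0.30) and rests on this probe alone. The spots listed last were dimmer than the others on both arrays, at 113, 120 and 134 with Ad-NC and 128, 137 and 132 with Ad-uc.372. The SE takes no account of such a shared pattern, and an error matched by spot position was not computed. The dimmer probe was near the limit, at 17.6 ± 1.97 with Ad-NC, where 1 of 10 spots was well above background, and at 23.9 ± 4.06 with Ad-uc.372, where all 10 were. No fold was taken from it, because the Ad-NC array gives only a limit there.

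miR-27a-3p had the highest difference of the 5 in the reported setting. Its brighter probe had a lowest, median and highest spot of 146, 165 and 176 with Ad-NC (164 ± 8.72, n = 8 spots) and of 164, 187 and 207 with Ad-uc.372 (184 ± 13.2, n = 10 spots). Its dimmer probe had 33.8, 44.8 and 51.8 with Ad-NC (44.5 ± 4.73, n = 10 spots) and 44.3, 55.6 and 66.3 with Ad-uc.372 (56.1 ± 6.30, n = 9 spots). Both probes were brighter with Ad-uc.372 before scaling, by log2 0.16 and 0.33. Before scaling, 7 of 10 and 8 of 9 Ad-uc.372 spots were brighter than every Ad-NC spot, and after it 1 of 10 and 2 of 9. After scaling the probes differed in sign, at -0.062 ± 0.043 and 0.11 ± 0.076 (SE), each beyond its own SE. Their mean was 0.023 ± 0.044 (SE; spot SD 0.19), the 175th lowest of 229. The SE of this mean leaves out the disagreement between the probes.

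The chromosome 9 members, miR-23b-3p and miR-27b-3p, had nearly the same difference. The brighter probe of miR-23b-3p had a lowest, median and highest spot of 503, 601 and 654 with Ad-NC (594 ± 47.9, n = 10 spots on each array, as for the other chromosome 9 probes) and of 533, 601 and 664 with Ad-uc.372 (605 ± 44.1). Its dimmer probe had 121, 160 and 184 with Ad-NC (159 ± 18.6) and 114, 190 and 212 with Ad-uc.372 (177 ± 37.4). The spots overlapped on both probes, and the scaled log2 difference was -0.15 ± 0.066 (SE; spot SD 0.30), with -0.20 and -0.096 on the probes.

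For miR-27b-3p, the brighter probe had a lowest, median and highest spot of 556, 653 and 747 with Ad-NC (649 ± 65.4) and of 499, 649 and 761 with Ad-uc.372 (641 ± 89.1). The dimmer probe had 127, 159 and 203 with Ad-NC (157 ± 25.8) and 121, 190 and 223 with Ad-uc.372 (179 ± 36.5). Here too the spots of the arrays overlapped on both probes. The scaled log2 difference was -0.15 ± 0.074 (SE; spot SD 0.33), with -0.25 and -0.055 on the probes. miR-23b-3p and miR-27b-3p lay 0.019 and 0.013 above the median of the 229 miRNAs, at the 123rd and 119th lowest places.

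**Figure D2:**
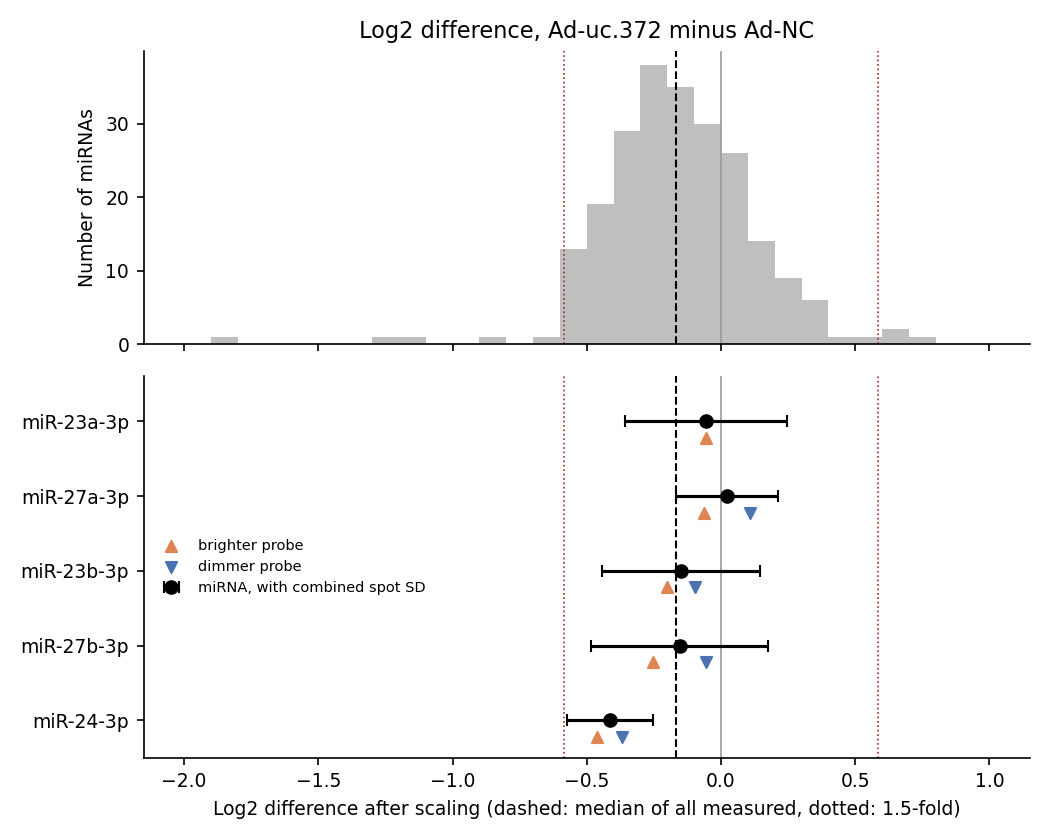
The upper panel counts the 229 miRNAs measured on both arrays by their scaled log2 difference, Ad-uc.372 minus Ad-NC. The lower panel gives each member (black points, bars are the combined spot SD) and its probes (triangles). The dashed line is the median of all measured miRNAs, -0.17, and dotted lines mark 1.5-fold. miR-24-3p lies at -0.41 and the other members between -0.15 and 0.023.

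The paralogues were then compared by their differences, since levels of different probes cannot be set side by side. miR-23a-3p was above miR-23b-3p by 0.092 ± 0.12 (SE over spots), and miR-27a-3p above miR-27b-3p by 0.18 ± 0.086. The first gap is smaller than its SE and the second is about the size of the gap between probes of miR-27a-3p, which were -0.062 and 0.11. Averaged over miR-23 and miR-27, the chromosome 19 members were above the chromosome 9 members by 0.13 ± 0.072 on the log2 scale. This exceeds its SE and is within the combined spot SD of 0.28, which is a spread of single spots. In every member with several measured probes the brighter probe had the lower difference, and the chromosome 9 members had the brighter probes. Among the probes of like signal, with Ad-NC means of 148 to 164, the log2 differences were -0.056 for miR-23a-3p, -0.096 for miR-23b-3p, -0.062 for miR-27a-3p and -0.055 for miR-27b-3p. These lay closer together than their errors. The remaining measured probes were the brighter ones of miR-23b-3p and miR-27b-3p, at -0.20 and -0.25, and the dimmer one of miR-27a-3p, at 0.11. With a lowess correction on brightness, chosen after seeing the data, the cluster gap was 0.11, against 0.13 as reported. The part of probe brightness in this gap was not tested.

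Within a cluster, the differences of miR-23 and miR-27 were not separated by more than their error. The difference of miR-23a-3p minus that of miR-27a-3p was -0.079 ± 0.10 (SE), and that of miR-23b-3p minus miR-27b-3p was 0.0061 ± 0.099. Across both clusters, the miR-23 pair minus the miR-27 pair gave -0.036 ± 0.072. None of these exceeded its SE.

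miR-24-3p stood below its mates in both clusters. Its log2 difference was lower than that of miR-23a-3p by -0.36 ± 0.10 (SE), than that of miR-27a-3p by -0.44 ± 0.056, than that of miR-23b-3p by -0.27 ± 0.075 and than that of miR-27b-3p by -0.26 ± 0.082. Against the mean of these 4 it was -0.33 ± 0.051. Each gap is over 3 times its SE between spots, which leaves out disagreement between probes. Those to miR-23b-3p and miR-27b-3p are within their combined spot SDs of 0.34 and 0.37. These SDs are a spread of single spots and not an error of the means. Among probes of like signal, the brighter probe of miR-24-3p (551 with Ad-NC) was at -0.46, against -0.20 and -0.25 for those of miR-23b-3p (594) and miR-27b-3p (649). Spot errors cover neither labelling nor hybridisation nor the cell culture, and the part of these was not tested.

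The image software's own total signal per miRNA sums the same probes on the same arrays, so it is not a separate measurement. It comes with an error, and its lowest ratio was for miR-24-3p. Unscaled, it was 136 ± 9.80 with Ad-NC and 119 ± 8.55 with Ad-uc.372 for miR-24-3p, a ratio of 0.876. It was 23.4 ± 2.28 and 26.98 ± 2.50 for miR-23a-3p (ratio 1.15), and 29.5 ± 2.55 and 34.0 ± 2.82 for miR-27a-3p (ratio 1.15). For all of these 3, the ranges of value and error overlapped between the arrays. For miR-23b-3p it was 106 ± 8.76 and 110 ± 8.97 (ratio 1.04), with overlap as well. For miR-27b-3p it was 114 ± 9.53 and 116 ± 9.51 (ratio 1.02).

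**Figure D3:**
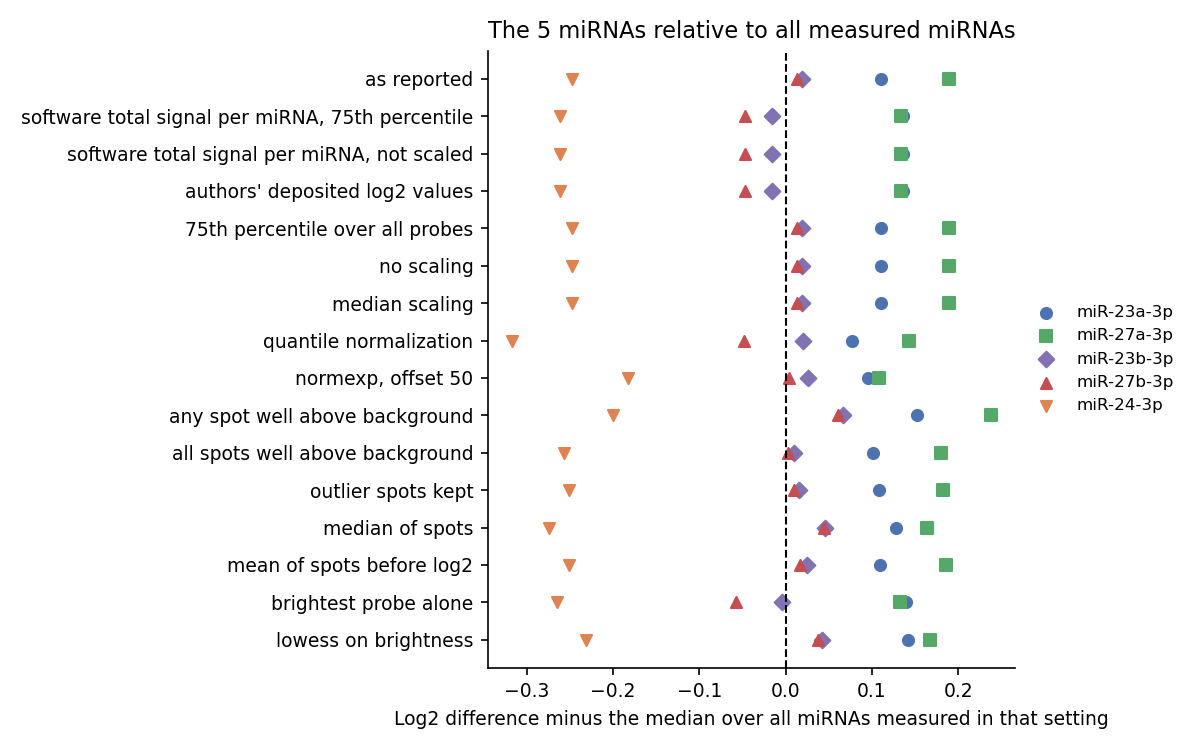
Log2 difference of each member minus the median over all miRNAs measured in the same setting (x axis), for the reported setting and 15 alternatives (rows). The dashed line marks that median, and miR-24-3p is below it in the 16 rows shown, from -0.32 to -0.18. The setting with no filter on dim probes is not drawn, because its median is set by miRNAs at the floor, and there miR-24-3p lies at 0.10.

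No spot of the other arms of the same hairpins was marked well above background. miR-23a-5p, miR-27a-5p, miR-24-2-5p, miR-23b-5p, miR-27b-5p and miR-24-1-5p are the strands mostly discarded when the 3p arm is loaded. Their 22 probes had mean signals between -5.18 and 9.93 after background subtraction. The brightest spot, of miR-24-1-5p, was at 18.9, and 0 of the 6 arms were detected by the software. The arms that would tell MIR24-1 from MIR24-2 are among these, so the lower miR-24-3p signal could not be traced to either hairpin. No fold is given for these arms, since neither array measured them well above background.

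**Figure D4:**
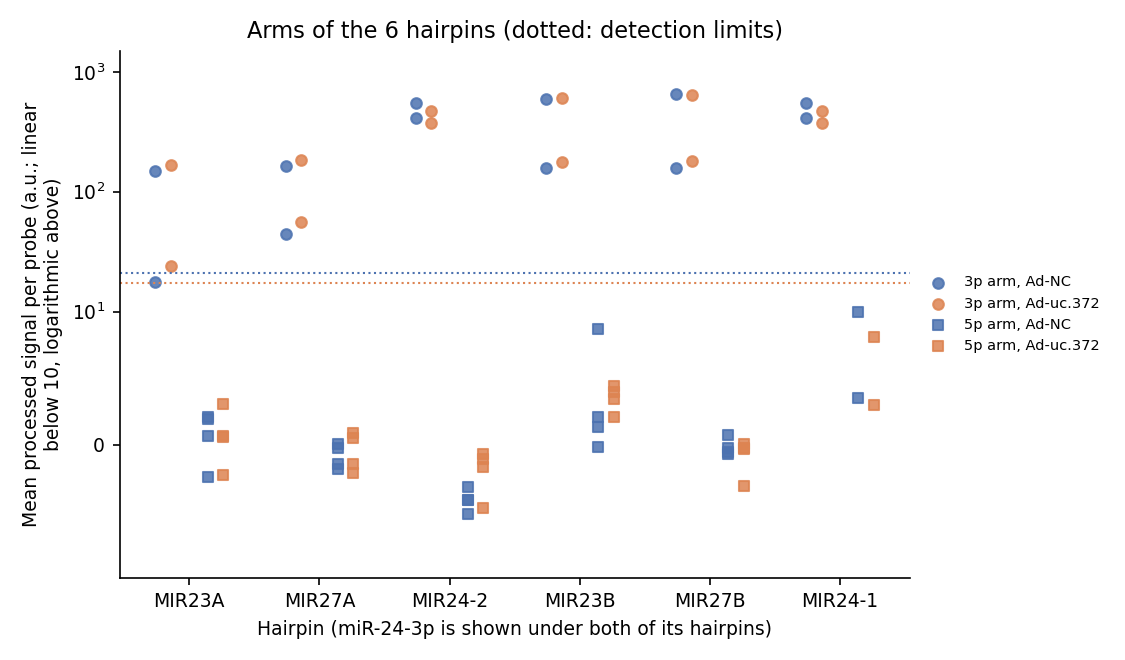
Mean processed signal of each probe (arbitrary units, linear below 10 and logarithmic above) for the 3p arm (circles) and the 5p arm (squares) of the 6 hairpins, with Ad-NC in blue and Ad-uc.372 in orange. Dotted lines are the dimmest spots marked well above background. Means of the 5p probes lie at or below 9.93, under both lines.

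Related sequences on the array were read alongside. miR-23c, a further member of the miR-23 family, shares the seed, and miR-128-3p shares 8 bases with miR-27a-3p, shifted by a single position. They are shown for that overlap, again with bases 2 to 8 in capitals.
hsa-miR-23c: aUCACAUUgccagugauuaccc
hsa-miR-128-3p: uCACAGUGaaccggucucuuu
Against miR-23b-3p, miR-23c carries G14U and A22C over 22 shared positions. None of its spots was well above background on either array, and the brightest reached 13.7. How far the probes for miR-23a-3p and miR-23b-3p, or for miR-27a-3p and miR-27b-3p, read each other's miRNA was not tested.

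miR-128-3p was measured on both arrays and was lower with Ad-uc.372. The lowest, median and highest spots of its brighter probe were 175, 179 and 199 with Ad-NC (183 ± 8.91, n = 9 spots) and 130, 157 and 179 with Ad-uc.372 (155 ± 15.4, n = 10 spots). The spots of its dimmer probe overlapped, at 46.0 ± 5.15 with Ad-NC and 42.8 ± 7.56 with Ad-uc.372 (n = 10 spots each). After scaling, 6 of these 10 Ad-uc.372 spots lay inside the Ad-NC range. The scaled log2 difference over both probes was -0.41 ± 0.057 (SE; spot SD 0.26), the 36th lowest of 229 and -0.24 from their median. miR-3074-5p and miR-3074-3p, from a hairpin on the strand opposite MIR24-1, had 4 probes without a spot well above background, and their brightest spot was at 13.4.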

How the data were processed

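The authors labelled RNA of each culture with Cy3, hybridised it to a human miRNA array (Agilent V21.0), and deposited 1 scanner file per array, made with Agilent Feature Extraction. The version is 10.10 per the labels and 11.5.1.1 per the file headers. The deposited intensity of each spot is background-subtracted and not normalized between arrays. Both arrays share a slide. A second file that the authors deposited holds log2 values per miRNA, normalized with GeneSpring GX by a method not given in the sources used here, which served as an alternative.

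Control spots and outlier spots were dropped. Any spot below the dimmest one marked well above background took that spot's value before log2. Probe differences were averaged into a miRNA's difference where both arrays measured the probe, and the combined spot SD is the square root of the arrays' summed spot variances. No test was made, since each group has 1 array. Calls used the 1.5-fold threshold of the methods. The named miRNAs were the 5 members, the other arms of their hairpins, miR-23c, miR-128-3p and both arms of miR-3074, with miR-122-5p as a check. The members and lists were chosen with earlier results of these data known. The steps were run on simulated arrays drawn from the Ad-NC probe means, with known changes larger than that of any member. These had no shift between arrays and no trend with brightness. The simulation therefore does not bear on differences as small as those of the members. Python 3.11.15, numpy 2.4.6, pandas 2.3.3, statsmodels 0.14.6 and matplotlib 3.10.9 were used, with R 4.3.3 and limma 3.58.1 for the normexp correction (offset 50, on median spot and background signals). All 15 named miRNAs looked up in RefSeq were matched.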

Additional observations from a re-analysis of the deposited data

How the results depend on the processing

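No member was past 1.5-fold in the reported setting or under any of 17 alternatives, 16 planned and 1, lowess on brightness, chosen after seeing the data. The miRNA differences that moved by more than the combined spot SD did so as follows. With the 75th percentile over all probes, which adds 0.48 to every difference, they were 0.43 for miR-23a-3p, 0.34 for miR-23b-3p, 0.51 for miR-27a-3p, 0.33 for miR-27b-3p and 0.069 for miR-24-3p, with a median of 0.34. Without scaling they were 0.25 for miR-27a-3p and -0.19 for miR-24-3p. When any spot well above background sufficed they were 0.21 and -0.22 for the same miRNAs. miR-24-3p was at -0.25 and -0.19 when the software's summed signal was scaled and left unscaled, and at -0.22 with lowess. It was lower than with Ad-NC in 16 of 17 settings. It also had the lowest difference of the 5 throughout, but settings that only add a constant cannot change the order or the gaps. The highest was miR-27a-3p in 13 settings and miR-23a-3p in 4, among them the authors' deposited values and the brightest probe alone. The gap of miR-23a-3p to miR-23b-3p ran from 0.057 to 0.15, and that of miR-27a-3p to miR-27b-3p from 0.10 to 0.19. Of the other values, 197 moved by less than the spot SD or gave the same count. Over all measured miRNAs, the 3 higher and 6 lower past 1.5-fold became between 1 and 34 and between 2 and 24, the 24 with the authors' deposited values, and with no filter on dim probes 2 and 13. With no filter the median of all miRNAs was -0.52, the scaled log2 ratio of the floors, and miR-24-3p lay 0.10 above it. Signals near background leave the 5p arms without a difference. The cause of the shifts not fixed by construction was not tested in these data. No paired analysis was possible because each group has 1 array. Slide and scan could not enter as blocks, since the pair of arrays has them in common.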

Other observations

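In each of the 4 members with several measured probes, the brighter probe had the lower log2 difference, by -0.20 to -0.093. The same held for 106 of the 157 measured miRNAs with several measured probes (67.5%), where the brightest minus the dimmest probe had a median of -0.063. This was noticed in the data and no test was made.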
